A study of Mus musculus with 4 samples.

Results

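The infusion term compares all 12 libraries of mice that received angiotensin II (HT) with all 12 libraries of mice that received vehicle (NT), over both surgeries. It came from an additive model with 1 term for infusion and 1 for surgery, so all 24 libraries of the series entered the fit. Of 33981 genes in the joined tables, 17608 passed a filter on low counts and were tested.

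Male C57BL/6J mice, 3 to 5 months old, were infused under the skin for 28 days with saline (NT) or with angiotensin II (HT), the latter at a daily dose of 0.28 mg/kg. On day 7 they had sham surgery or a photothrombotic stroke of the prefrontal cortex, in which light on the skull activates the dye Rose Bengal and clots the vessels beneath. This gave NT + Sham, HT + Sham, NT + Stroke and HT + Stroke, with 6 libraries each, and both infusions were given to sham and stroke mice alike. Brains were perfused to clear blood, and poly(A) RNA from a coronal section that held the prefrontal cortex was sequenced at the end of the infusion. The tables number 6 libraries per group and each was treated as 1 mouse, although nothing in the labels says so, and *P* values measure only the spread between these libraries.

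Angiotensin II is the active peptide of the renin-angiotensin system. It is cut from angiotensinogen by renin and angiotensin-converting enzyme, and through its type 1 receptor it constricts vessels, drives aldosterone release and raises blood pressure. In the brain, long infusion of the peptide is used as a model of hypertension and is known for effects on small vessels, oxidative stress and glia.

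Total counts were 15922919 to 24865998 per library, with a median of 18067166 in HT and 18954045 in NT. The labelled tissue was checked by cortical markers, as counts scaled to library size (CPM). *Slc17a7*, the vesicular glutamate transporter of cortical neurons, was at 1580 to 3150 CPM, and the cortical transcription factors *Fezf2* and *Tbr1* were at 22.2 to 56.1 and 82.4 to 152 CPM. Libraries 3 and 6 of HT + Stroke held transcripts of nasal epithelium and of skeletal muscle, described with the genes concerned. Libraries 1 and 6 of HT + Stroke were low on lists of injury genes and library 6 of HT + Sham was high. The mean log2(CPM + 1) of the reactive astrocyte list was 2.75 and 2.88 in libraries 1 and 6 of HT + Stroke, against 3.70 to 4.74 in the other stroke libraries, and 3.36 in library 6 of HT + Sham, against 2.44 to 2.64 in the other sham libraries. For disease-associated microglia these values were 5.04 and 5.04 against 5.72 to 7.03, and 5.69 against 4.59 to 4.82. A fit without these 3 libraries, chosen after seeing the data, stands beside the results it moves. In these bulk samples fewer cells of a type and less RNA per cell cannot be told apart.

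No gene passed the test for infusion over both surgeries. At an adjusted *P* under 0.05 by the edgeR quasi-likelihood test, 0 of 17608 genes were called (0%), and the smallest adjusted *P* was 0.924. Without adjustment, 751 genes had a *P* under 0.05 (4.27%), of which 346 were higher (1.97%) and 405 lower (2.3%) in HT. An even spread of *P* values would put 5% of genes there. DESeq2 also called 0 genes after adjustment, and 1023 of 33981 genes (3.01%) without it. The unadjusted count of 751 was 1138 without library 5 of HT + Sham and 1204 without library 3 of HT + Stroke, with 0 genes called after adjustment in both. Without the 3 libraries that stood apart on injury lists it was 1054 of 17943 genes (5.87%), with 0 called after adjustment (smallest adjusted *P* 0.424, that of *Impa1* at a log2 fold change of −0.21). In 0 genes (0%) did the 12 HT libraries lie apart from the 12 NT libraries. The split of these genes moved with the scaling, since 46.1% were higher in HT with TMM scaling, 31.5% when only library size was used and 62.0% for log2 FPKM in limma.

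The fit was tight for most genes. The median log2 fold change was 0.0033, with a median SE of 0.084. Its 5th and 95th percentiles over genes were −0.18 and 0.22. For 14983 genes (85.1%) the whole 95% interval lay within a 1.5-fold difference in either direction, and for 17106 genes (97.1%) within 2-fold. Among the 15746 genes of average log2 CPM above 0, these shares were 93.0% and 98.9%. The genes whose log2 fold change was beyond 1 numbered 35, with 32 higher and 3 lower in HT.

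**Figure D1:**
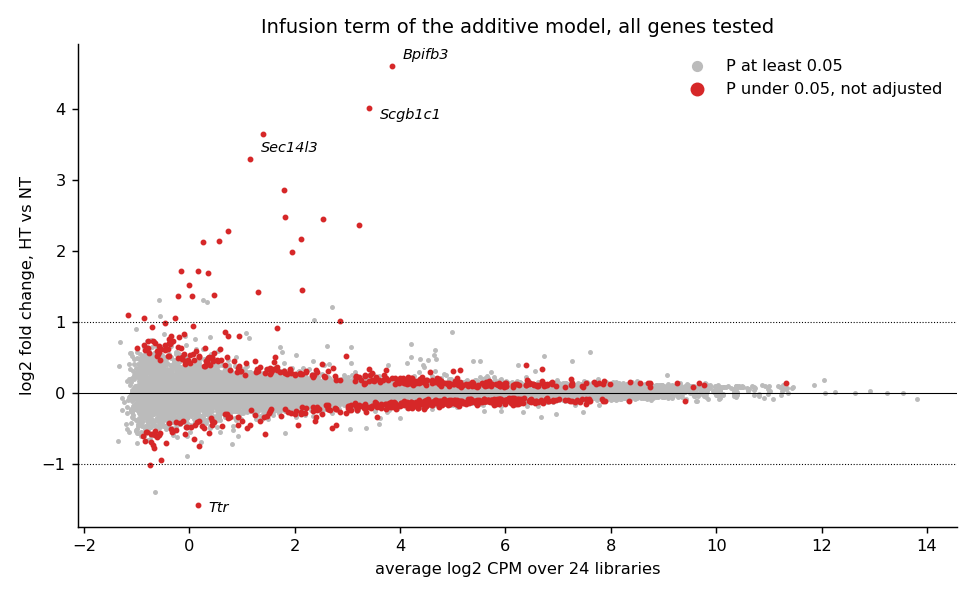
Log2 fold change of HT vs NT from the additive model (vertical axis) against average log2 CPM over 24 libraries (horizontal axis) for all 17608 genes tested, with the 751 genes of unadjusted P under 0.05 in red and dotted lines at a log2 fold change of 1 in either direction. Most genes lie close to 0, and the points far above the line include *Bpifb3*, *Scgb1c1* and *Sec14l3*, whose counts come mostly from 1 library.

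The gene with the smallest *P* was *Impa1* (chr3:10311956-10331439, minus strand), which encodes inositol monophosphatase, an enzyme that returns inositol phosphates to free inositol. Its lowest, median and highest values were 50.1, 58.9 and 63.1 CPM in NT and 45.7, 50.9 and 57.2 CPM in HT. All 12 HT libraries lay below the NT median of their own surgery, although the 2 infusions overlapped. The log2 fold change was −0.17 (95% interval −0.25 to −0.09, unadjusted *P* = 0.000149, adjusted *P* = 0.924). In sham mice alone HT + Sham (48.9 to 56.0 CPM) lay wholly below NT + Sham (57.2 to 63.1 CPM), a separation downward that 0.205% of the genes tested in sham mice showed. Such a separation upward was seen for 0.181% of genes in sham mice, and in stroke mice for 0.0647% upward and 0.1% downward. For *Impa1* the ranges of the stroke groups overlapped, at 45.7 to 57.2 CPM in HT + Stroke and 50.1 to 60.0 CPM in NT + Stroke.

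The other 11 genes of smallest *P* among those with lower fitted levels in HT had log2 fold changes from −0.39 to −0.14, and each had an adjusted *P* of 0.924. Such lists were chosen by their *P*, so their directions are a description. *Chmp5*, a subunit of the ESCRT-III machinery that buds vesicles into endosomes, was at 66.6, 74.2 and 78.2 CPM in NT and at 60.2, 65.7 and 75 CPM in HT (lowest, median, highest). Of the 12 HT libraries 7 lay below every NT library. *Glra3*, the alpha 3 subunit of the glycine receptor, had the widest difference of these genes, with a log2 fold change of −0.39 (SE 0.10). It was at 3.14, 5.48 and 8.67 CPM in NT and at 2.32, 4.14 and 5.78 CPM in HT, and the ranges overlapped within both surgeries. HT + Sham was at 4.3 to 5.78 CPM beside 5.35 to 8.67 CPM in NT + Sham, and HT + Stroke at 2.32 to 3.99 CPM beside 3.14 to 5.6 CPM in NT + Stroke.

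Several of these genes act on RNA, protein folding or signaling. *Rc3h1* (Roquin-1, which targets immune mRNAs for decay) had a log2 fold change of −0.16 and *Ranbp9*, a scaffold of an E3 ubiquitin ligase complex, of −0.15. *Ppid* (cyclophilin 40, a partner of HSP90) was at −0.14, *Zfp451*, a SUMO ligase, at −0.15, and *Tank*, an adaptor of TRAF signaling, at −0.22. *Mterf3*, which acts on mitochondrial transcription, was at −0.17, with medians of 16.1 CPM in NT and 14.5 CPM in HT. The remaining 3 were *Crem*, a cAMP-responsive transcription factor (−0.18), *Fam149b* (−0.14) and the long noncoding RNA *Gm20300* (−0.15). All 12 HT libraries lay below the NT median of their surgery for *Impa1*, *Chmp5*, *Glra3*, *Rc3h1*, *Gm20300* and *Mterf3*.

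Among genes with higher fitted levels in HT, the smallest *P* belonged to *Pllp* (chr8:94674894-94696278, minus strand), which encodes plasmolipin, a membrane protein of myelin. It was at 9.04, 10.9 and 16.2 CPM in NT and at 10.5, 15.7 and 18.8 CPM in HT. All 12 HT libraries lay above the NT median of their surgery, and 4 lay above every NT library. The log2 fold change was 0.32 (95% interval 0.15 to 0.49, unadjusted *P* = 0.000722, adjusted *P* = 0.924), made of 0.21 in sham and 0.42 in stroke mice.

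Another was *Gng13*, a gamma subunit of G proteins known from taste, retinal and olfactory cells. *Gng13* was at 20.8, 28.7 and 38.5 CPM in NT and at 26.4, 35.5 and 49.0 CPM in HT, and 10 of 12 HT libraries lay above the NT median of their surgery. Its log2 fold change was 0.32 (SE 0.09), near equal in sham (0.30) and stroke mice (0.33). *Unc5b*, a netrin receptor of axons and endothelial cells, had 0.21, with 0.09 in sham and 0.32 in stroke mice. *Zfp41*, a zinc finger gene, had 0.31 and lay above the NT median in all 12 HT libraries. *Maats1*, a gene of cilia and flagella, had 0.46, *Fam131c* 0.41, *Gm45133* 0.22, *Tmem131l* 0.21 and the monocarboxylate transporter gene *Slc16a11* 0.16.

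**Figure D2:**
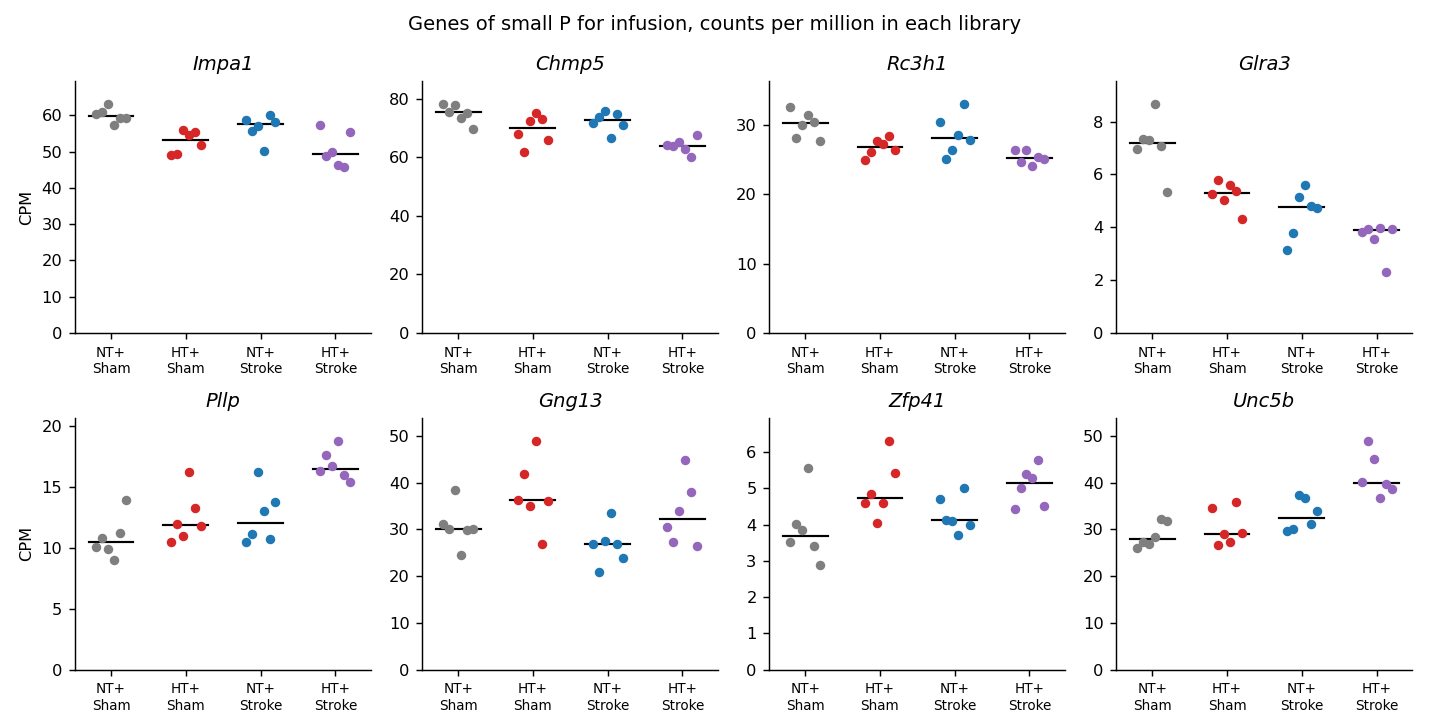
CPM of 8 of the genes of smallest unadjusted P for infusion, with 1 point per library, 6 per group, and a black bar at each group's median. *Impa1*, *Chmp5*, *Rc3h1* and *Glra3* (top) have lower medians in HT than in NT within both surgeries and *Pllp*, *Gng13*, *Zfp41* and *Unc5b* (bottom) higher medians, with HT and NT points overlapping in every gene.

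Because counting by strand is not stated, reads of *Pllp*, *Gng13*, *Scgb1c1*, *Maats1*, *Gm45133*, *Crem*, *Fam149b*, *Ranbp9* and *Mterf3* cannot be told apart from those of genes annotated on the opposite strand of the same span. *Glra3* also overlaps 2 such genes.

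The remaining 3 genes of the 12, *Bpifb3*, *Scgb1c1* and *Sec14l3*, are known from nasal and airway epithelium and rested on library 3 of HT + Stroke. *Bpifb3* was at 304 CPM there and at 0 to 13.9 CPM in the other 23 libraries, so that 6685 of its 7299 counts came from it. Its log2 fold change of 4.6 became 1.02 (unadjusted *P* = 0.299) without that library, and those of *Scgb1c1* and *Sec14l3* went from 4.01 and 3.28 to 0.70 and 0.63. *Omp*, the olfactory marker protein of olfactory sensory neurons, was at 162 CPM in the same library, against at most 66.3 CPM elsewhere.

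Most large differences followed single libraries. Of the 32 genes with a log2 fold change above 1, 23 had their highest value in library 3 of HT + Stroke, and 11 of the 32 stayed above 1 when it was left out. Those 23 include further genes of nasal epithelium and olfactory sensory neurons, such as *Muc5b*, *Cyp2g1*, *Cyp2a5*, *Cnga2* and *Stoml3*. *Atp2a1*, *Myl1*, *Tnni2*, *Myh1* and *Myoz1*, genes of skeletal muscle fibers, were instead highest in library 6 of HT + Stroke, and *Atp2a1* was at 30.0 CPM there and at most 0.803 CPM elsewhere. On the lower side *Ttr* (transthyretin, secreted by the choroid plexus) had a log2 fold change of −1.57 (SE 0.54), with 1 NT + Sham library at 8.77 CPM and the others at 0.0579 to 1.52 CPM. *Gm10134* and *Car6* were the other two below −1.

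The renin-angiotensin genes of the list used here were described as a whole, since they handle the infused peptide. All 18 had counts, 16 were tested, and 0 had an unadjusted *P* under 0.05 (4.27% of all genes tested). Their median log2 fold change was −0.05, beside 0.0033 over all genes tested, with 7 above and 9 below 0.

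Among the genes that make the peptide, *Agt* (angiotensinogen, made by astrocytes in brain) was at 5.98, 9.86 and 19.2 CPM in NT and at 4.77, 11.9 and 17.6 CPM in HT. The groups overlapped, and the log2 fold change of 0.14 (95% interval −0.24 to 0.53) joined 0.56 in sham mice to −0.25 in stroke mice. *Ren1* (renin) had 8 counts over the 12 NT libraries and 6 over the 12 HT libraries and was not tested. *Ace*, the converting enzyme, was at 11.8, 15.9 and 25 CPM in NT and 12.6, 18.3 and 25.1 CPM in HT, with a log2 fold change of 0.03 (−0.14 to 0.19). *Cma1*, the mast cell chymase that can also form angiotensin II, had few counts, 95 in NT and 67 in HT. The 2 surgeries differed in direction, with 1 count in NT + Sham and 21 in HT + Sham, but 94 in NT + Stroke and 46 in HT + Stroke. *Atp6ap2*, the prorenin receptor, had a log2 fold change of −0.08 (−0.17 to 0.02), and of −0.11 (unadjusted *P* = 0.0308) without the 3 libraries that stood apart on injury lists, the only 1 of the 16 tested genes with an unadjusted *P* under 0.05 there.

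Of the receptors, *Agtr1a*, the main type 1 receptor of mice, was at 0.119, 0.542 and 1.1 CPM in NT and at 0.311, 0.518 and 0.731 CPM in HT. Its interval was wide, at −0.71 to 0.30 around a log2 fold change of −0.20, since single libraries held 3 to 20 counts. *Agtr2*, the type 2 receptor, came nearest to the unadjusted threshold, with a log2 fold change of −0.58 (−1.18 to 0.02, unadjusted *P* = 0.0572). It had 120 counts in NT and 72 in HT, made of 47 and 37 in sham mice and 73 and 35 in stroke mice. Below the NT median of their surgery lay 10 of 12 HT libraries, 4 in HT + Sham and 6 in HT + Stroke. *Agtr1b* had 26 and 28 counts and was not tested. *Mas1*, the receptor for angiotensin-(1-7), was at −0.09 (−0.29 to 0.11), and *Agtrap*, which binds the type 1 receptor and drives its uptake, at 0.07 (−0.17 to 0.31). The value of *Agtrap* joined 0.35 in sham mice to −0.20 in stroke mice.

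Among the peptidases that degrade or convert angiotensin peptides, *Enpep* (−0.05, interval −0.29 to 0.18), *Anpep* (0.04), *Lnpep* (−0.08), *Mme* (−0.11) and *Prcp* (−0.10) all had intervals across 0. The same held for *Rnpep*, *Thop1* and *Prep*, at 0.02, 0.09 and 0.04. The whole interval lay within 1.5-fold for 13 of the 16 tested genes and within 2-fold for 14.

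**Figure D3:**
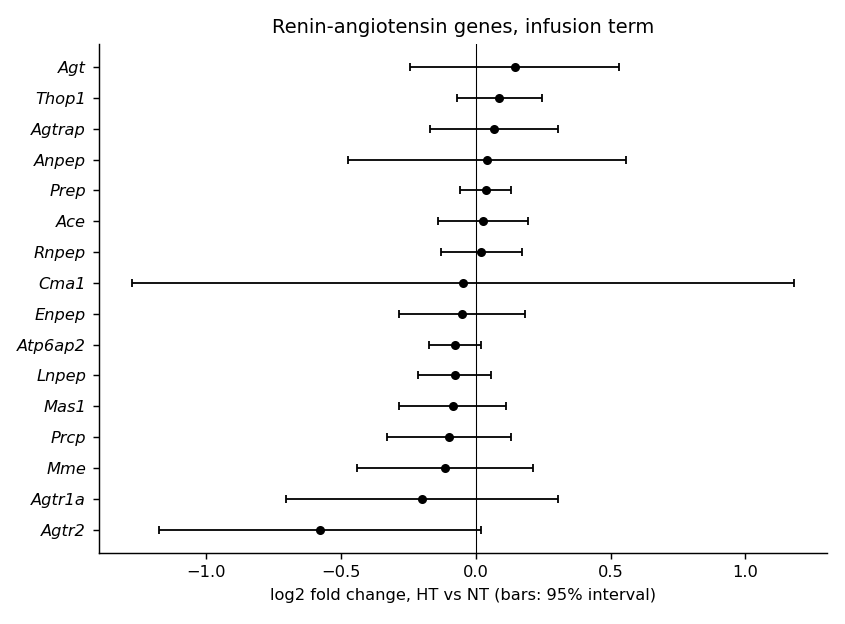
Log2 fold change of HT vs NT for 16 tested genes of the renin-angiotensin system, with bars for the 95% interval. All intervals cross 0, and the widest are those of *Cma1* and *Agtr2*, which have few counts.

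Steroid and vessel genes gave the same picture. Of 18 genes of the mineralocorticoid and glucocorticoid response 0 had an unadjusted *P* under 0.05, and *Sgk1*, an aldosterone-induced kinase, had a log2 fold change of −0.25 (SE 0.16). Among 19 vasoactive enzymes and receptors 1 had, *Ece1*, which matures endothelin, at 0.11 (SE 0.04). Of 24 endothelial and barrier genes *Vwf* (von Willebrand factor, 0.21, made of 0.43 in sham and −0.01 in stroke mice) and *Ocln* (occludin of tight junctions, −0.22, made of −0.19 and −0.26) had. *Abcb1a*, the efflux pump, was at −0.15 (unadjusted *P* from edgeR 0.0536). Of 17 pericyte and smooth muscle genes *Tpm2* had an unadjusted *P* under 0.05, at 0.30, with its highest value in library 6 of HT + Stroke (54.0 CPM, at most 31.6 elsewhere). The medians of these lists were −0.03, −0.01, −0.05 and 0.09, the second of them above 0 for log2(FPKM + 0.1).

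Matrix and fibrosis lists held *Col12a1*, a collagen of the fibril surface, with the smallest unadjusted *P* of any of the list genes. It was at 8.44, 13.5 and 17.0 CPM in NT and at 8.04, 9.35 and 17.2 CPM in HT, with a log2 fold change of −0.33 (SE 0.11, unadjusted *P* = 0.00408). *Col6a1* went the other way, at 0.17 (SE 0.07), and these were the 2 of 25 collagen and basement membrane genes with an unadjusted *P* under 0.05. None of 18 fibroblast, 21 matrix metalloproteinase and inhibitor, or 23 TGF-beta genes had one. Their medians were 0.06, 0.06 and −0.00, each turning sign under 1 of 5 other scalings or tools.

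Genes of cell stress had the largest count on 1 side. Of 26 heat shock and unfolded protein genes 5 had an unadjusted *P* under 0.05 and lower fitted levels in HT (19.2%, beside 2.3% of all genes tested on that side), and 0 had higher ones. They were the endoplasmic reticulum chaperones *Hspa5* (−0.15) and *Dnajb9* (−0.12) and the cytosolic chaperones *Hsp90aa1* (−0.11), *Dnaja1* (−0.11) and *Hsph1* (−0.12). *Hspa5* was at 165, 186 and 237 CPM in NT and at 143, 171 and 219 CPM in HT, with wide overlap. The list median was −0.04. Members of a list share regulators and libraries, so this count is a description, and 0 of the 26 passed the adjusted test.

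Of 18 hypoxia genes *Pgk1*, a glycolytic enzyme (−0.11), and the demethylase gene *Kdm3a* (−0.12) had an unadjusted *P* under 0.05, and 17 of 18 had log2 fold changes below 0, with a median of −0.05. None of 30 immediate early genes had one, although 23 of 30 were below 0 and this list had the lowest median of all (−0.10). *Fos*, the best known of them, was at −0.43 (SE 0.22), made of −0.04 in sham and −0.85 in stroke mice. Of 19 clock genes *Bhlhe40*, a repressor of the clock, had one, at −0.16. None of 23 NADPH oxidase and antioxidant genes had. Over all genes tested 8607 of 17608 were below 0, and members of a list share libraries, so the counts of signs are a description.

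Glial and immune lists had medians of −0.07 to 0.13. None of 17 homeostatic microglia, 22 disease-associated microglia, 18 complement, 18 antigen presentation, 21 cytokine and chemokine, 9 T cell, 7 B cell, 8 neutrophil and mast cell or 22 reactive astrocyte genes had an unadjusted *P* under 0.05. *Cbr2* was 1 of 14 border and infiltrating macrophage genes and had one at a log2 fold change of 1.01, but it was at 67.7 CPM in library 3 of HT + Stroke and at most 8.24 CPM elsewhere, and at 0.17 without it. *Usp18*, which damps interferon signaling, was 1 of 23 interferon-stimulated genes (−0.49, SE 0.21). For the disease-associated microglia, complement and reactive astrocyte lists, the medians of 0.06, 0.09 and 0.10 turned below 0 for log2 FPKM. Without libraries 1 and 6 of HT + Stroke and library 6 of HT + Sham these medians were 0.14, 0.18 and 0.20, and 2 of 22, 2 of 18 and 4 of 22 genes had an unadjusted *P* under 0.05 and higher fitted levels in HT. Of the homeostatic microglia genes 6 of 17 then had one on the higher side, with a median of 0.11, and 0 genes of any list passed after adjustment. Over all genes tested in that fit 481 of 17943 had one on the higher side, and members of a list share libraries. In stroke mice alone the medians of the disease-associated microglia, complement and reactive astrocyte lists went from −0.10, −0.06 and −0.09 to 0.19, 0.23 and 0.23 without libraries 1 and 6 of HT + Stroke. The libraries left out were chosen for low (HT + Stroke) or high (HT + Sham) scores on injury lists. Leaving them out moves such medians by itself, upward in stroke mice, so these values are a description.

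All 7 blood genes had log2 fold changes above 0, and their median of 0.31 was the highest of any list, made of 0.50 in sham and 0.06 in stroke mice. Their mean log2(CPM + 1) was 4.69 in library 5 of HT + Sham and 2.95 and 2.97 in libraries 1 and 3, against 3.27 to 3.67 in NT + Sham. Without library 5 the sham median was 0.04. *Hba-a1* (alpha globin) had 0.45 (SE 0.28) and *Hbb-bs* (beta globin) 0.44 (SE 0.29), and 0 of 7 had an unadjusted *P* under 0.05. The mice had been perfused, and differences in residual blood between libraries were not tested.

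Among neural lists, *Cnp*, an enzyme of myelinating cells, was the only 1 of 22 myelin genes with an unadjusted *P* under 0.05 (0.14, SE 0.06). None of 18 homeostatic astrocyte, 15 oligodendrocyte precursor, 19 cortical layer, 20 interneuron, 28 synaptic receptor or 18 neuropeptide and trophic factor genes had one, and neither had any of 28 Wnt and 17 iron and heme genes. Of 16 neuroblast and cell cycle genes *Cenpf* had (0.58), of 22 cell death genes *Bak1* (0.17), and of 24 cholesterol genes *Sc5d* (−0.13) and *Cyp51* (−0.12). *Ttr*, described above, was the only 1 of 16 choroid plexus and ependyma genes, and none of 13 septal, hypothalamic and thalamic genes had one.

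Energy and translation lists had most members above 0 by small amounts, with larger medians in stroke than in sham mice. Over all genes tested 9001 of 17608 were above 0. Members of a list share regulators and libraries, so the counts of signs are a description. Of 39 nuclear genes of oxidative phosphorylation 34 had log2 fold changes above 0, with a median of 0.08 (−0.02 in sham and 0.16 in stroke mice), and *Ndufa12*, a subunit of complex I, was the 1 with an unadjusted *P* under 0.05 (0.39, SE 0.18). Of 37 cytosolic ribosomal protein genes 36 were above 0, with a median of 0.07 (0.01 in sham and 0.12 in stroke mice), and 0 had one. Their intervals lay within 1.5-fold for 38 of the 39 and all 37. In the mitochondrial genome *mt-Nd4l* (−0.49) and *mt-Nd6* (0.15) had one of 13. *mt-Nd4l* overlaps *mt-Nd4* and *mt-Nd6* lies on the opposite strand to its neighbors, so their counts are uncertain.

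Over all 45 lists, 25 of 840 list genes tested had an unadjusted *P* under 0.05 (2.98%, beside 4.27% of all genes tested), 29 lists had none, and medians ran from −0.10 to 0.31. Without library 3 of HT + Stroke, *Vwf*, *Cyp51* and *Cbr2* no longer had one. For 31 lists the median had opposite signs in sham and stroke mice.

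**Figure D4:**
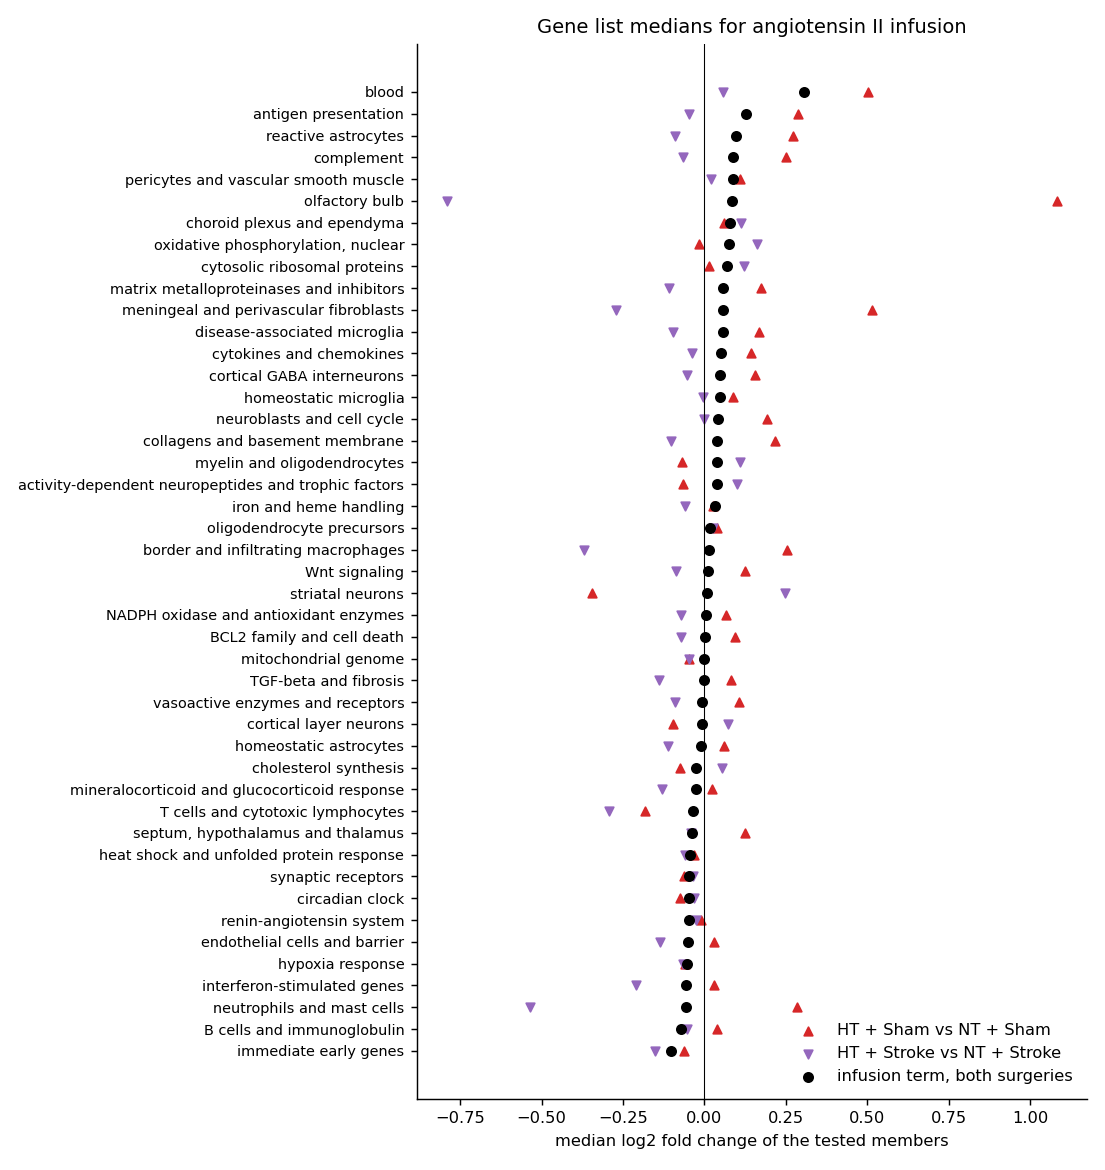
Median log2 fold change of the tested members of each of 45 gene lists (horizontal axis) for the infusion term over both surgeries (black), in sham mice (red) and in stroke mice (purple). Black points stay close to 0 while red and purple points often lie on opposite sides of it, farthest apart for the olfactory bulb list, at 1.08 and −0.79.

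The additive model takes the infusion effect to be alike in both surgeries, so each surgery was also fitted on its own libraries, which share none. Across the 16407 genes tested in both, the log2 fold changes of HT + Sham vs NT + Sham and HT + Stroke vs NT + Stroke were weakly inverse, with Spearman's rho of −0.22 and Pearson's r of −0.30 across genes, which are not independent. Signs were the same for 7263 genes (44.3%). In sham mice 8.03% of all genes tested had an unadjusted *P* under 0.05 (4.96% higher and 3.08% lower in HT), and in stroke mice 7.23% had (3.35% higher and 3.89% lower). The sham count of 1332 became 775 without library 6 of HT + Sham. The stroke count of 1230 became 630 and 732 without libraries 1 and 5 of NT + Stroke, and 773 and 3491 without libraries 2 and 3 of HT + Stroke. Without libraries 1 and 6 of HT + Stroke it became 796. Of 113 genes with one in both surgeries, 105 had opposite signs and 8 the same sign. Without libraries 1 and 6 of HT + Stroke and library 6 of HT + Sham rho was 0.04 and r −0.01, and 54.1% of signs were the same. There 23 of 37 genes with an unadjusted *P* under 0.05 in both surgeries had the same sign. These libraries were chosen for injury scores that were low in HT + Stroke and high in HT + Sham. Leaving them out weakens an inverse relation by itself, so this fit cannot decide whether the relation holds.

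Those 8 were *Gng13*, with higher fitted levels in HT, and *Impa1*, *Rc3h1*, *Gm20300*, *Ranbp9*, *Ppid*, *Mterf3* and *Laptm4b*, with lower ones. *Laptm4b*, a lysosomal membrane protein gene chosen here after its values were seen, had −0.13 in sham and −0.14 in stroke mice. For *Mterf3*, the HT + Sham libraries (13.8 to 14.7 CPM) lay wholly below the NT + Sham libraries (15 to 17.6 CPM), while HT + Stroke (12.9 to 15.6 CPM) and NT + Stroke (14 to 18.4 CPM) overlapped.

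A test of the difference itself, the interaction, called 0 genes after adjustment (0%, smallest adjusted *P* 0.262), and 1836 genes without it (10.4%). DESeq2 called 22 of 33981 genes after adjustment (0.0647%, smallest adjusted *P* 0.0367), with interaction terms above 0 for 4 and below 0 for 18. The count of called genes thus depended on the tool. The unadjusted edgeR count of 1836 was 1220 without library 6 of HT + Sham and 3139 without library 3 of HT + Stroke. Without the 3 libraries that stood apart on injury lists it was 688 (3.83%), with a smallest adjusted *P* of 0.993. The choice of these libraries by their injury scores can lower this count by itself. The 4 genes of smallest *P* were *Plxdc1*, *Syt6*, *Vamp1* and *Ctbp2*. *Syt6*, a synaptotagmin, had 0.45 in sham and −0.38 in stroke mice, and *Vamp1*, a synaptic vesicle protein gene, −0.22 and 0.18. Over both surgeries the infusion term of these 4 genes was −0.04 to 0.08. *Plxdc1*, a membrane protein gene known from tumor endothelium, was at medians of 43.2 CPM in NT + Sham, 38.4 in HT + Sham, 37.6 in NT + Stroke and 47.4 in HT + Stroke.

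Markers of the olfactory bulb, a neighboring brain region, had medians that differed between the groups, with ranges that overlapped. *Doc2g*, a marker of olfactory bulb mitral cells, had medians of 34.6 CPM in NT + Sham, 78.9 in HT + Sham, 76.3 in NT + Stroke and 30.2 in HT + Stroke. The 17 olfactory bulb genes had a median log2 fold change of 1.08 for infusion in sham mice, where 16 were higher at an unadjusted *P* under 0.05, and of −0.79 in stroke mice, where 0 had one. Their mean log2(CPM + 1) per library ran from 3.62 to 4.44 in NT + Sham, 4.17 to 5.70 in HT + Sham, 4.07 to 5.59 in NT + Stroke and 3.19 to 5.08 in HT + Stroke, and the highest HT + Sham value was that of library 6. In the infusion term over both surgeries the 2 directions offset each other, leaving a median of 0.08 that was below 0 for log2(FPKM + 0.1), with 0 of 17 at an unadjusted *P* under 0.05.

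Striatal list medians had the opposite signs, with medians of −0.35 in sham and 0.25 in stroke mice and 0.01 over both, the last below 0 with DESeq2 and with library size only. None of its 18 members (0) reached an unadjusted *P* below 0.05 in sham or in stroke mice, at a median SE of 0.29 over both, and the medians were −0.16 in sham mice without library 6 of HT + Sham and 0.05 in stroke mice without libraries 1 and 6 of HT + Stroke. *Drd1*, the D1 dopamine receptor, had medians of 21.3, 16.8, 38.2 and 39.0 CPM in NT + Sham, HT + Sham, NT + Stroke and HT + Stroke. The meningeal and perivascular fibroblast list moved as the olfactory bulb list did, at 0.52 in sham mice, with 11 of 18 genes higher at an unadjusted *P* under 0.05, and −0.27 in stroke mice, with 0. Its score was 4.70 in library 6 of HT + Sham, against 3.35 to 3.99 in the other HT + Sham libraries, and 3.78 and 3.67 in libraries 1 and 6 of HT + Stroke, against 4.56 to 5.37 in the other stroke libraries. Without library 6 of HT + Sham the sham median was 0.28, with 8 of 18 genes higher, and without libraries 1 and 6 of HT + Stroke the stroke median was −0.02. The olfactory bulb medians were then 0.78, with 15 of 17 genes higher, and −0.43.

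With the olfactory bulb and striatal scores of each library as covariates within each surgery, an alternative chosen after seeing the data, Spearman's rho between the surgeries was 0.01 and 52.0% of signs were the same. Unadjusted counts then were 223 in sham mice (1.34%), 344 in stroke mice (2.02%) and 292 for the interaction (1.66%). Without these covariates they were 1332 (8.03%), 1230 (7.23%) and 1836 (10.4%). The shares with covariates lay below the 5% of an even spread of *P* values, and 0 genes passed after adjustment. The scores come from the same libraries, and each fit has 2 fewer degrees of freedom. The median olfactory bulb score was 4.95 in HT + Sham beside 4.07 in NT + Sham, and 4.05 in HT + Stroke beside 4.87 in NT + Stroke. Fitting a score that differs by infusion, in opposite directions, can remove infusion differences and an inverse relation by itself. These fits therefore cannot decide whether either holds. In the infusion term over both surgeries the same covariates gave 950 genes in place of 751. All 24 named higher and lower genes kept their sign and an unadjusted *P* under 0.05, among them *Impa1* and *Pllp*. They were chosen by their *P* on these same libraries, so this is a description. *Bpifb3*, *Scgb1c1* and *Sec14l3* no longer had an unadjusted *P* under 0.05 with DESeq2, or without library 3 of HT + Stroke. In the fits without covariates, where rho was −0.22 with all libraries, it was −0.26 without library 3 of HT + Stroke. Without library 6 of HT + Sham it was −0.13 there.

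**Figure D5:**
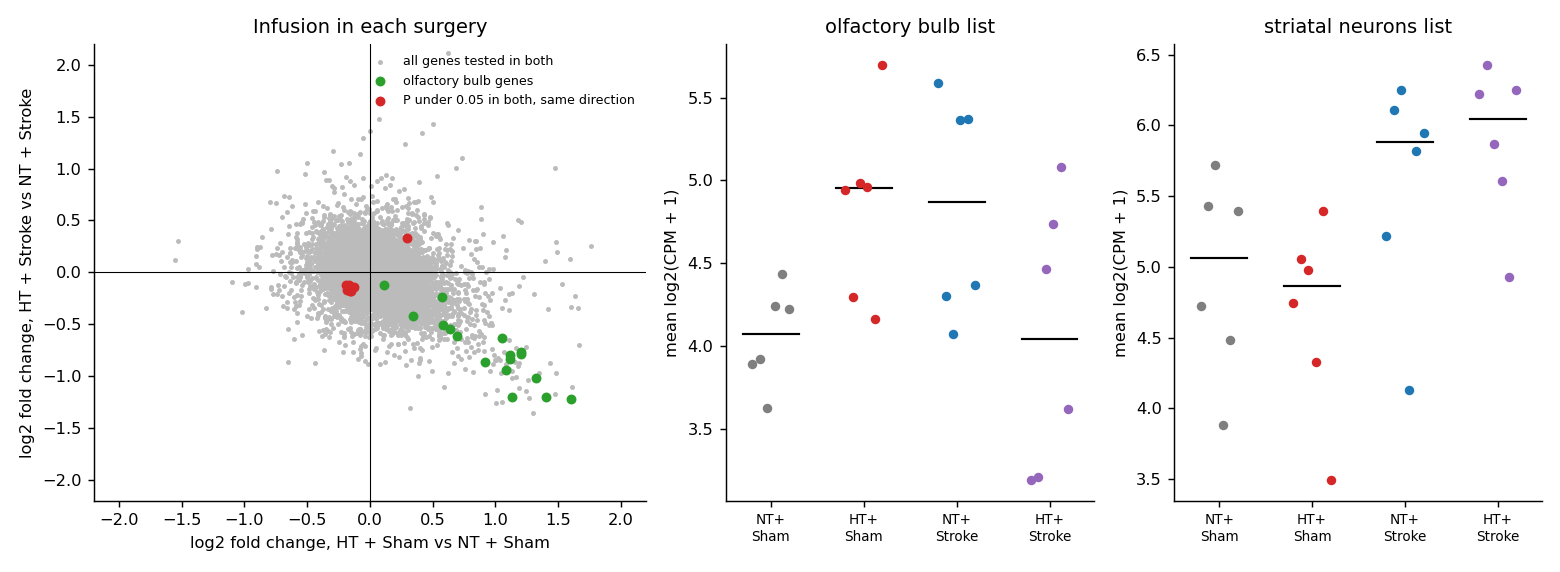
Left, log2 fold change of HT + Stroke vs NT + Stroke against that of HT + Sham vs NT + Sham for 16407 genes, with olfactory bulb genes in green and the 8 genes of unadjusted P under 0.05 and the same direction in both in red (4 genes lie outside the axes). Middle and right, mean log2(CPM + 1) of the olfactory bulb and striatal lists in each library, with a bar at each group's median, on axes that do not start at 0. Green points lie to the lower right, above 0 in sham and below 0 in stroke mice.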

How the data were processed

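Poly(A) RNA of 24 libraries was described by 4 tables, each of which compares 2 groups. The counts as deposited are whole reads (or read pairs) per gene, made by the authors after mapping to the Ensembl mouse genome. The submitters' processing notes name featureCounts 1.5.0-p3 and DESeq2 1.20.0, and the aligner and genome build are not given in the sources used here. The FPKM values as deposited are counts that the authors scaled by gene length and library size, and were used only as an alternative. The authors' fold change and p-value columns and 56 columns of normalized counts or group means were not used. Libraries present in several tables were compared 48 times, with 0 differences. Where a table did not list a gene, its libraries were set to 0 counts. Genes were matched by identifier, and 33960 of 33981 are in GENCODE mouse release 21, 97.7% of them at the same position. Positions are those of the tables.

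The filterByExpr function (at least 10 counts, 15 in total) removed low genes, and the rest were scaled by TMM and tested in R 4.3.3 with edgeR 4.0.16 (two-sided quasi-likelihood test of infusion, with surgery as the other term), with *P* values adjusted by Benjamini-Hochberg across the 17608 genes and called below 0.05. The same test was run within each surgery and for the interaction, and tested on simulated data. CPM uses TMM-scaled library sizes. DESeq2 1.42.0 and limma 3.58.1 were alternatives. Intervals are 95% intervals of the fit. Totals of 15922919 to 24865998 counts per library limit genes of few counts.

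Named genes are the 12 of smallest P among those higher and the 12 among those lower in HT with average log2 CPM above 0, the listed renin-angiotensin genes, up to 4 of smallest P in each other list and 4 for the interaction. Genes with a log2 fold change beyond 1 and *Laptm4b* were named after their values were seen. The comparison and the 45 lists were chosen with earlier results of these data known, so the lists are described by counts and medians and were not tested as sets. A few genes are not reported here and were left out of the lists. No batch or date is given in the labels. Library numbers repeat between groups. Same-numbered libraries of different groups correlated at −0.482 to 0.364 in their deviations from the group mean, so the numbers were not taken to pair mice.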

Additional observations from a re-analysis of the deposited data

Results flagged for a closer look

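Values of single libraries that stood apart from the other 5 of their group by Dixon's criterion were looked for in 44 named genes, 176 groups in all. These were the named higher and lower genes, the tested renin-angiotensin genes and the interaction genes. Members of the other lists were not searched. There were 16 (9.09%), where chance gives about 1 in 20, a rate that need not hold for genes of few counts such as *Cma1*. Library 3 of HT + Stroke stood apart for *Bpifb3* (304 CPM), *Scgb1c1* (221 CPM), *Sec14l3* (39.4 CPM) and *Cma1* (1.14 CPM), and library 5 of HT + Stroke for *Glra3* (2.32 CPM) and *Syt6* (48.2 CPM). In HT + Sham, library 3 was high for *Bpifb3* (13.9 CPM) and *Scgb1c1* (7.12 CPM), library 5 was low for *Gm45133* (9.43 CPM) and high for *Tank* (26.1 CPM), library 6 was high for *Anpep* (11 CPM) and library 2 for *Cma1* (0.684 CPM). In NT + Stroke, library 5 was high for *Sec14l3* (1.29 CPM), and library 6 was low for *Gm45133* (10.5 CPM). In NT + Sham, library 4 was high for *Lnpep* (74.2 CPM), and library 6 was the only one with a count of *Cma1* (0.0535 CPM).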

How the results depend on the processing

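No alternative called a gene for infusion over both surgeries after adjustment. The smallest adjusted *P* ran from 0.293 (DESeq2) to 0.988 (no surgery term) over alternatives that keep all libraries and from 0.687 to 1 with 1 library left out, and was 0.533 with region scores and without library 3 of HT + Stroke and 0.424 without libraries 1 and 6 of HT + Stroke and library 6 of HT + Sham. Without adjustment, counts were 751 for both surgeries, 1332 in sham mice, 1230 in stroke mice and 1836 for the interaction. The count of 751 became 2227 with all genes of at least 1 count, 1179 with olfactory bulb, striatal and microglia scores as covariates and 1637 with both region scores and without library 3 of HT + Stroke (both chosen after seeing the data). Region scores, also added after seeing the data, gave 223 in sham mice (1.34%), 344 in stroke mice (2.02%) and 292 for the interaction (1.66%). Without libraries 1 and 6 of HT + Stroke and, for both surgeries, library 6 of HT + Sham, a choice also made after seeing the data, there were 1054 genes over both surgeries, 796 in stroke mice and 688 for the interaction. Leaving out 1 library gave 538 to 1204 genes over both surgeries, 775 to 1897 in sham mice, 630 to 3491 in stroke mice and 1220 to 3139 for the interaction. Changes over 1.5 times came without HT + Sham 5 (1138) or HT + Stroke 3 (1204) over both surgeries, HT + Sham 6 (775) in sham mice, NT + Stroke 1 (630), NT + Stroke 5 (732), HT + Stroke 2 (773) or HT + Stroke 3 (3491) in stroke mice, and HT + Sham 6 (1220) or HT + Stroke 3 (3139) for the interaction. The cause was not tested. DESeq2 called 22 of 33981 genes (0.0647%) for the interaction after adjustment. With the library number as a replicate block 0 genes passed and 733 had an unadjusted *P* under 0.05. Of 5184 values of named genes with 1 library left out 5170 moved by less than their SE, and of 3210 under other settings 3128 did. Genes of few counts, such as *Agtr1a* and *Agtr2*, have wide intervals.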
